A study of Mus musculus with 2 samples.

Results

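Genes of the cell cycle and of DNA replication were examined for open chromatin in monocytes from mouse blood. The 42 genes, of 21853 protein-coding genes in all, are those that load and run the replication fork, supply nucleotides, drive or hold back entry into S phase, and carry out mitosis. For each gene, promoter regions within 1 kb of a start of a protein-coding transcript were read from the authors' conservative peak set, together with distal regions, which lie farther out and have that gene as the nearest one within 100 kb. The samples were primary monocytes taken from the peripheral blood of C57BL/6J mice aged 5 to 6 weeks, untreated as far as the labels say, and formed 1 group of 2 biological replicates with no control group. Each ATAC-seq library, in which the transposase Tn5 cuts accessible DNA, was made from 50000 cells. One donor identifier covers both replicates in the labels, which leave unsaid whether the cells came from separate animals, and the spread may then be only technical.

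A dividing cell licenses its replication origins in G1, when Cdc6 and Cdt1 load the ring-shaped MCM helicase, and fires them in S phase, when Cdc45 and the GINS complex activate it. Cyclins switch this on through their kinases: cyclin D with Cdk4 or Cdk6 phosphorylates the retinoblastoma protein, which releases E2F factors to activate the S-phase genes, and cyclin B with Cdk1 later brings the cell into mitosis. Many S-phase promoters carry E2F sites, and many mitotic promoters carry a cell cycle genes homology region (CHR), which is bound by the MuvB complex, close to CCAAT boxes, which are bound by NF-Y. Blood monocytes are mostly non-dividing cells that descend from rapidly dividing progenitors in the bone marrow.

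The sequences of mitotic promoters are shown first, because CHR and CCAAT letters recur in them. Each is the reference sequence of RefSeq on GRCm38.p6 from 170 bases before the transcription start to the first 30 bases from it, 5′ to 3′ on the strand of the gene. Capitals mark matches, on either strand, to E2F (TTTCCCGC, TTTCGCGC, TTTGCCGC or TTTGGCGC), CHR (TTTGAA or TTCGAA) and NF-Y (CCAAT, which reads ATTGG on the other strand). Matches of 1 motif may overlap each other. Ccnb2 and Cdk1 encode cyclin B2 and its kinase, Cdc20 an activator of the anaphase-promoting complex, Bub1 a spindle checkpoint kinase and Top2a the topoisomerase that untangles sister chromatids.
Ccnb2 (chr9:70421525-70421724, minus strand): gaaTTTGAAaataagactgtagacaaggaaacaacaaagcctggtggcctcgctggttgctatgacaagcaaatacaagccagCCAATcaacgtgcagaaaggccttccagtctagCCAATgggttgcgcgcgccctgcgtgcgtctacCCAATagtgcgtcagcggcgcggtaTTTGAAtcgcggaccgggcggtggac
Cdk1 (chr10:69352883-69353082, minus strand): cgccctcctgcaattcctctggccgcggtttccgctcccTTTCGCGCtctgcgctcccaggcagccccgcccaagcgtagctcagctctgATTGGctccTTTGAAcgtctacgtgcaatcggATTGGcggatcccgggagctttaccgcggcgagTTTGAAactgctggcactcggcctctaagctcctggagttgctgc
Cdc20 (chr4:118437314-118437513, minus strand): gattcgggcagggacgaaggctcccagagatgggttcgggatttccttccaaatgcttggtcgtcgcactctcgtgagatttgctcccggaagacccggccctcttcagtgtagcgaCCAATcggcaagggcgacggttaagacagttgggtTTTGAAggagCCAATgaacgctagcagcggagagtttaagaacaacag
Bub1 (chr2:127831830-127832029, minus strand): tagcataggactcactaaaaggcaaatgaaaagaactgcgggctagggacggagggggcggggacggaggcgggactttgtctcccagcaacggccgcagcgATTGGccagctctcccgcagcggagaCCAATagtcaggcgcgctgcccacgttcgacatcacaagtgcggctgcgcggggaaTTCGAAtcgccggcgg
Top2a (chr11:99024160-99024359, minus strand): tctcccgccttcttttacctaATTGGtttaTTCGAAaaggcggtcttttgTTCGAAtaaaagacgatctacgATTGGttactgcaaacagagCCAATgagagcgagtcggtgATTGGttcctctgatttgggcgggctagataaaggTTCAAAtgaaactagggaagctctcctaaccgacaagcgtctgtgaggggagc

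In several replication promoters the E2F letters recur. Mcm3, Mcm5 and Mcm6 encode subunits of the MCM ring, and Cdc6 its loader. The capitals have the same meaning. The E2F letters of Mcm5 and the upstream ones of Mcm6 are 2 overlapping matches on opposite strands.
Mcm3 (chr1:20820283-20820482, minus strand): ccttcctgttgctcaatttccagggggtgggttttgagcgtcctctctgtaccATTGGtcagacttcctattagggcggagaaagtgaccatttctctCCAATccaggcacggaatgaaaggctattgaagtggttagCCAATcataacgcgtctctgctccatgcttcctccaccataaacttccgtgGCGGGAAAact
Mcm5 (chr8:75109339-75109538, plus strand): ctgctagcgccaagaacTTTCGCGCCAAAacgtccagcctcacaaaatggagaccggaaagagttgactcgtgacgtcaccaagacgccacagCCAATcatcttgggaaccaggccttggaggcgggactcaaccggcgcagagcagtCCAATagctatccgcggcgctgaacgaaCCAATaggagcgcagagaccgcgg
Mcm6 (chr1:128359676-128359875, minus strand): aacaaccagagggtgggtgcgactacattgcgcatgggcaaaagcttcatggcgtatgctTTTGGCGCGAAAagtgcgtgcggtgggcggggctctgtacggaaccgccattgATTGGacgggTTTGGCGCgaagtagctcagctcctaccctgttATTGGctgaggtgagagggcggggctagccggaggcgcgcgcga
Cdc6 (chr11:98907981-98908180, plus strand): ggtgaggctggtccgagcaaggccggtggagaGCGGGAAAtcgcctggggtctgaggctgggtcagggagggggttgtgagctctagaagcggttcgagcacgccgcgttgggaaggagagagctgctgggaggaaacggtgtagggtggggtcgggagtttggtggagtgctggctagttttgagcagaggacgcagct

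For contrast, Tyms, the thymidylate synthase gene, and Ccnd3, the cyclin D3 gene, have none of the 3 motifs within 250 bases before to 50 bases after the start.
Tyms (chr5:30073596-30073795, minus strand): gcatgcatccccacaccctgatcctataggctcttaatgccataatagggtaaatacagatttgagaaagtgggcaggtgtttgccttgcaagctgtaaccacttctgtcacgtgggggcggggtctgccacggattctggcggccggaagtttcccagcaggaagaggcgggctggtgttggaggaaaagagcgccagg
Ccnd3 (chr17:47504881-47505080, plus strand): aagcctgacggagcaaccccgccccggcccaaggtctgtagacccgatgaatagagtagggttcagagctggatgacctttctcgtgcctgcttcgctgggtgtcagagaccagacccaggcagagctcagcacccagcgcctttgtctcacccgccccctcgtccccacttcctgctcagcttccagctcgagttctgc

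The promoter table of RefSeq held 33 of the 42 members. Gins1, Aurkb, Mcm4, Ccne2, Ccnd1, Rb1, Gins2, Ccnd2 and Ccna2 were not matched. For a gene with several RefSeq starts, the one nearest its main annotated start was used. It still lay 433 to 539 bases from that start for Mcm7, E2f1, Mcm10 and Cdkn2c. The windows of E2f1 and E2f3 did not overlap the strongest promoter region of the gene, so their counts do not describe that region. Over the whole window of 250 bases before to 50 after the start, 8 of the 9 matched mitotic promoters held a CHR match (88.9%), against 17.1% of 16515 promoters of all genes. The exception was Ccnb1, which encodes cyclin B1. All 9 held a CCAAT box, against 38.6% of all promoters, and 8 held 2 or more, against 13.1%. Plk1, a mitotic kinase, was the one with a single CCAAT box. Both motifs together were present in 8 of 9, compared with 7.09% of all promoters and 6.14% of open ones. E2F letters were found in 1 of the 9, that of Cdk1.

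Licensing and fork genes had another set of letters. Of 10 matched promoters, 6 held an E2F match, against 2.96% of all promoters and 4.65% of open ones. These were Mcm3, Mcm5, Mcm6, Mcm7, Cdc6 and Cdt1, the gene of the licensing factor that Cdc6 works with. CCAAT boxes were in 8 of the 10, the exceptions being Cdc6 and Cdt1, and CHR letters in 3, those of Mcm2, Mcm7 and Cdc45. The 3 matched promoters of the G1 group, Ccnd3, Cdk4 and Cdk6, held none of the 3 motifs. Cdk2 and E2f2 held 1 E2F match each. Over all 33 members the shares were 27.3% for E2F, 33.3% for CHR and 66.7% for NF-Y. A match is a run of letters and does not show that a factor was bound, and these motifs were picked from what is known of cell cycle promoters.

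**Figure D1:**
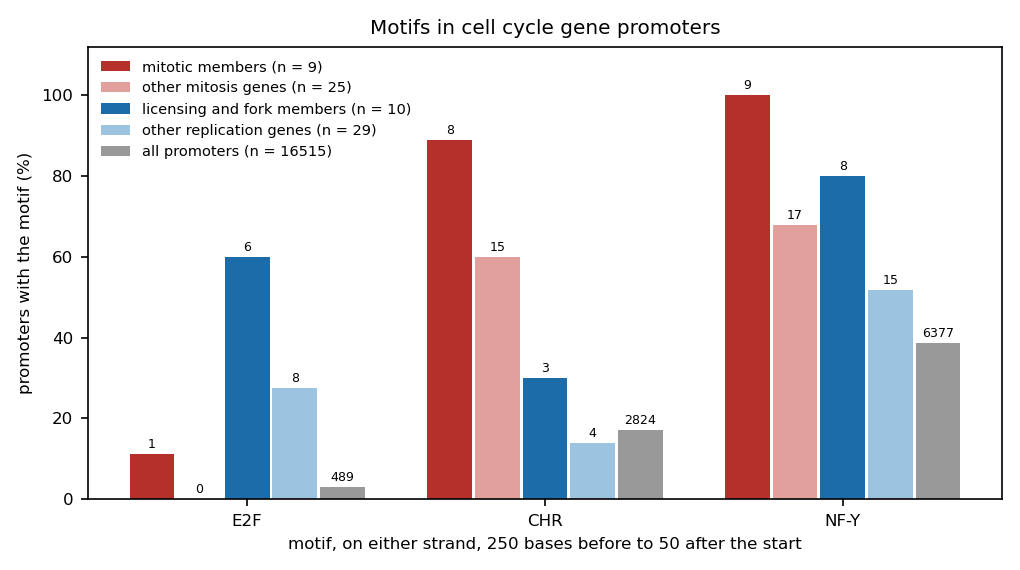
Share of promoters, in percent, that hold an E2F, CHR or NF-Y match on either strand in the RefSeq window; the number above each bar counts promoters with the motif and n gives the promoters in the group. Mitotic members stand at 8 of 9 for CHR and 9 of 9 for NF-Y, and licensing and fork members at 6 of 10 for E2F.

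Most of the matches lay inside the open regions described next. For mitotic members with an open promoter, all 13 CHR matches and all 23 CCAAT boxes fell within the region, at a median of 73 and 27 bp from its summit. The summit of a region is the authors' summit of its peak with the smallest p. The 11 E2F matches of licensing and fork genes also lay within their regions, at a median of 85 bp from the summit, and so did 17 of their 18 CCAAT boxes, all but one of Mcm2. The E2F match of E2f2 lay outside its region. The window spans 300 bases, while members' strongest regions had a median width of 586.5 bp. As 37 of the 38 summits lay within 300 bp of a start, most letters of the window could lie inside by position alone. No such share was computed for all open promoters. Of the 9 matched mitotic promoters, Aurka, Ccnb1, Ccnb2 and Cdk1 held CCAAT boxes that began 32 or 33 bases apart, and Ccnb2 held 3 in a row at this spacing. Such a pair was found in 0.781% of all promoters, and in 5.98% of the 2156 with 2 or more CCAAT boxes. Among open promoters these shares were 1.38% and 8.29%. In 25 promoters of further mitosis genes that are not members, 2 (8.0%) held such a pair. This spacing was chosen after the positions had been seen.

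**Figure D2:**
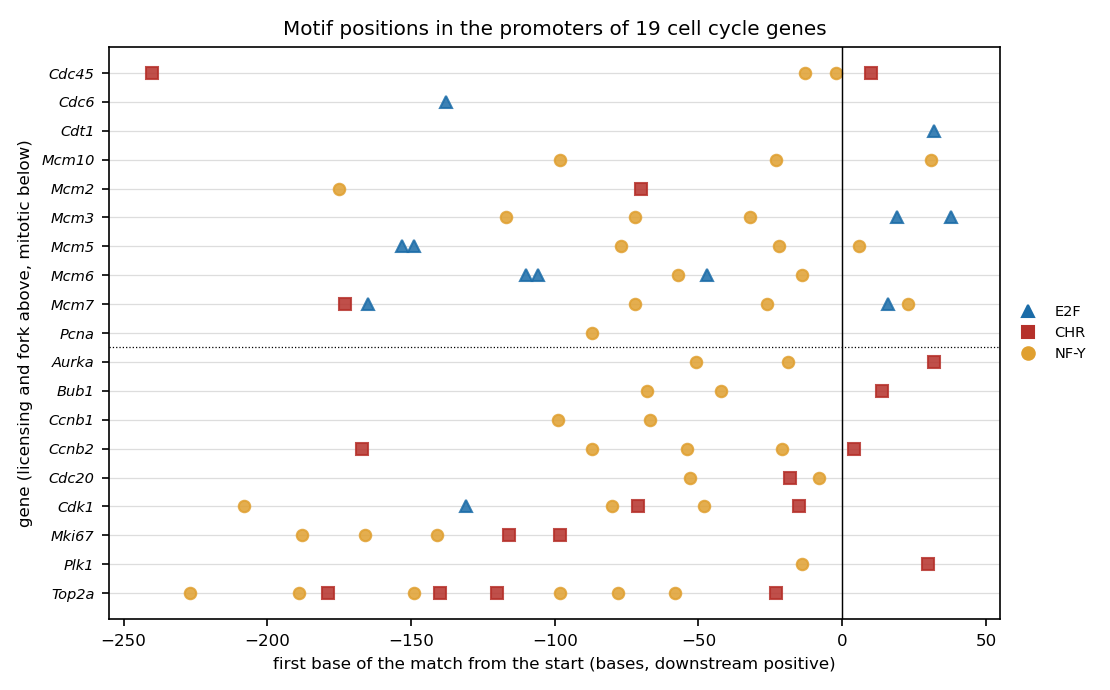
Position of each match in the promoters of 10 licensing and fork genes (above the dotted line) and 9 mitotic genes (below it), as bases from the transcription start at 0. CHR matches (squares) are concentrated in the lower rows and E2F matches (triangles) in the upper rows; the CCAAT boxes of Ccnb2 are evenly spaced.

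Promoters of these genes were open in nearly every case. In the conservative set, 38 of 42 members (90.5%) had an open promoter, where 46.6% of all protein-coding genes did. Promoters rich in CpG are open more often in these data, and the members' are CpG-rich. When genes were ranked by CpG ratio into 5 classes of equal size, all 18 members in the richest class were open, against 78.5% of all genes in that class. In the next class 12 of 14 were open, where the share of all genes was 73.3%, and in the middle class 8 of 10, where it was 52.9%. The 2 poorest classes held no member. The replicates' own thresholded sets, which hold peaks that passed the reproducibility cut within 1 replicate, gave 34 members in replicate 1 (39.3% of all genes) and 34 in replicate 2 (40.7%), and 31 members were in both. The looser pseudoreplicated sets gave 38 in replicate 1 and 39 in replicate 2, beside 50.5% and 51.3% of all genes.

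The strength of a promoter region is given as the authors' fold enrichment, a linear ratio over background, which ranks regions within a list and is not scaled between lists. The median over the 38 open members was 8.59 in the conservative set, close to the 8.34 of all open promoters. A fold of 10 or more was reached by 16 of the 38 (42.1%), against 30.3% of all open promoters. Members differed by role, from a median of 11.5 for licensing and fork genes and 10.3 for mitotic genes to 4.55 for the G1 cyclins and kinases. In bulk samples, a promoter open in fewer cells and one less open in each cell cannot be told apart, and a region of low fold may be either. Peak lists carry no read counts, so library depth is unknown and no counting interval is given.

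**Figure D3:**
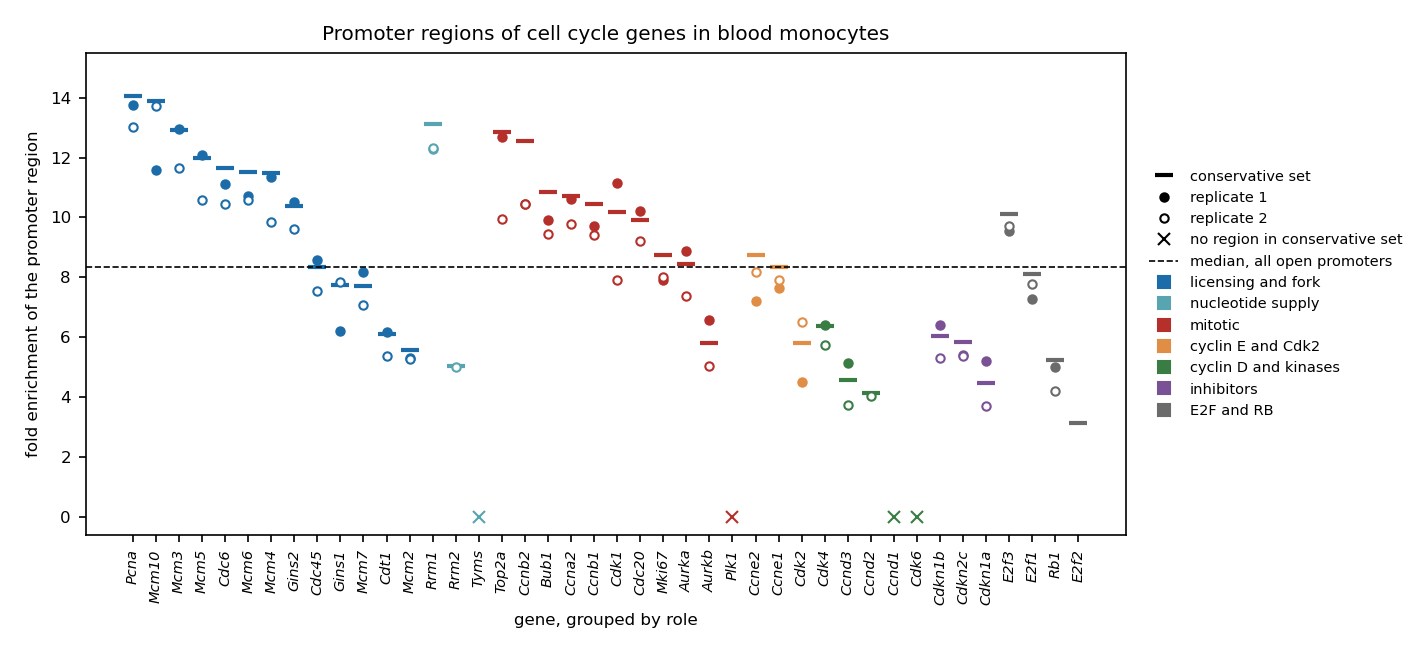
Fold enrichment of the strongest promoter region of each of the 42 genes in the conservative set (bar) and in replicates 1 (filled) and 2 (open circle), grouped by role; crosses on the zero line are genes with no region, not a measured value of 0. Licensing and fork genes and mitotic genes lie mostly above the dashed median of all open promoters, 8.34, and the G1 cyclins, their kinases and the inhibitors, where they have a region, lie below it.

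All 13 licensing and fork genes were open, each in both replicates' thresholded sets. From here on, values in brackets are the mean of the replicates ± SD, n = 2. Pcna, the sliding clamp that holds the polymerases on DNA, had the strongest promoter of all members in the conservative set and in replicate 1, and Mcm10 in replicate 2. The fold of Pcna was 13.8 in replicate 1 and 13.0 in replicate 2, a mean of 13.4 ± 0.536 (SD, n = 2), and 96.8% of open promoters in the conservative set were weaker. The region, chr2:132252591-132253526, covers the first exon. Mcm10, which helps to activate the helicase, had 11.6 and 13.7, a mean of 12.7 ± 1.52 (SD, n = 2). Within the MCM ring the folds were unequal. Mcm3 had 13.0 and 11.6 (12.3 ± 0.925). Mcm5 had 12.1 and 10.6 (11.3 ± 1.05). Mcm6 had 10.7 and 10.6 (10.7 ± 0.109). All 3 stood above Mcm7, at 8.17 and 7.06 (7.61 ± 0.786), in each replicate. The lowest was Mcm2 at 5.29 and 5.26 (5.28 ± 0.0255), and Mcm3 was more than 2 times as high in both replicates. Mcm4, at 11.4 and 9.84 (10.6 ± 1.08), shares its region with the start of Prkdc, the gene of a DNA repair kinase, so that this value cannot be assigned to Mcm4 alone. The Mcm7 region is likewise shared with Ap4m1.

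The loaders split in the same way. Cdc6 had 11.1 and 10.4 (10.8 ± 0.487), and Cdt1 6.16 and 5.36 (5.76 ± 0.565), so the values of these partners did not overlap. Of the genes that turn the loaded ring into a helicase, Gins2 had 10.5 and 9.60 (10.1 ± 0.658) and Gins1 6.21 and 7.85 (7.03 ± 1.16). Cdc45 had 8.56 and 7.55 (8.05 ± 0.718) in a region of 1445 bp that it shares with Ufd1. Its summit lay in an exon of Cdc45, 75 bp upstream of a start that is 346 bp downstream of the main one. Cdt1 and Gins2 lie within Gm20388, a long annotated gene that also spans their regions.

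Nucleotide supply was divided between a strong, a weak and an uncalled promoter. Rrm1, the large subunit of ribonucleotide reductase, had 12.3 in each replicate (12.3 ± 0.0178, SD, n = 2). The promoter of its partner subunit Rrm2 had a region of 5.02 in the conservative set, with 5.01 in replicate 2 and no overlapping region of replicate 1, although the looser set of replicate 1 held another region near a Rrm2 start at 5.00. Rrm2 also had 4 distal regions, while Rrm1 had none. Tyms, whose sequence is printed above, had no region in the conservative set or in either replicate's sets. It had a weak region of 3.24 in the looser sets of the series, at chr5:30073175-30073625, with its summit 57 bp downstream of its start.

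Mitotic genes were open at 10 of 11 promoters, with a median of 10.3. Top2a had 12.7 and 9.95 (11.3 ± 1.94) and Ccnb2 10.4 and 10.5 (10.4 ± 0.00831), and these values overlap. Ccna2, which encodes cyclin A2, had 10.6 and 9.77 (10.2 ± 0.603). Bub1 had 9.90 and 9.45 (9.68 ± 0.318), and Cdc20 10.2 and 9.23 (9.72 ± 0.697). Cdk1 had 11.2 and 7.92 (9.54 ± 2.28), the widest spread in fold among the members. Ccnb1 had 9.70 and 9.43 (9.57 ± 0.196). Lower than these 7 in the conservative set were the genes of the Aurora kinases and Mki67, the gene of the proliferation marker Ki-67. Mki67 had 7.90 and 8.02 (7.96 ± 0.0863). Aurka had 8.88 and 7.36 (8.12 ± 1.07) in a region shared with Cstf1. Aurkb, the kinase of the chromosomal passenger complex, had 6.56 and 5.02 (5.79 ± 1.09), the weakest of the group.

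Plk1 was the mitotic gene without a region in the conservative set, and the replicates differed there. Replicate 2 had a region of 6.11 in its thresholded set at chr7:122159232-122159523, with its summit 61 bp upstream of the start. Replicate 1 had only a weaker region of 4.01 in its looser set, 433 bp upstream. The other thresholded set of the series listed Plk1 at 4.94. Its promoter holds a CHR match 30 bases after the start and a CCAAT box 14 bases before it.

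The G1 cyclins and their kinases had the lowest median promoter fold of the role groups and the most distal regions per gene, though not per length of domain. An open promoter was found for 3 of the 5, beside 46.6% of all protein-coding genes. In the middle CpG class and the next richer one, which hold these 5 genes, the shares of all genes were 52.9% and 73.3%. The median fold of the 3 was 4.55, and only 4.97% of all open promoters were weaker than that of Ccnd3, the middle one. Cdk4 was the strongest at 6.41 and 5.75 (6.08 ± 0.468, SD, n = 2). Ccnd3 had 5.14 and 3.72 (4.43 ± 1.00) at its main start and 2 more promoter regions at starts inside the gene, of 4.27 and 4.13 in the conservative set. Ccnd2, the cyclin D2 gene, had 4.12 in the conservative set, 4.03 in replicate 2 and none in replicate 1. Cdk6 had no conservative region but weak ones in the looser sets, of 3.53 in replicate 1 and 3.36 in replicate 2. Ccnd1, the cyclin D1 gene, had no promoter region in any of the 8 peak sets. It was the only member of which this was true.

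Entry into S phase and its brakes lay between these groups. Ccne1 and Ccne2, which encode E-type cyclins, had 7.63 and 7.92 (7.78 ± 0.201) and 7.21 and 8.16 (7.69 ± 0.671). Their values overlap. Their kinase Cdk2 had 4.49 and 6.49 (5.49 ± 1.41), the largest difference between replicates among members on the log2 scale, 0.53, and its region is shared with Pmel, a pigment gene. Cdkn1b, which encodes the inhibitor p27, had 6.41 and 5.30 (5.86 ± 0.790). Cdkn2c, an inhibitor of Cdk4 and Cdk6, had 5.41 and 5.38 (5.40 ± 0.0194). Cdkn1a, which encodes the p53 target p21, had 5.21 and 3.70 (4.45 ± 1.07). All 3 inhibitors stood below both E-type cyclins in each replicate.

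Among the factors downstream, the 3 activating E2F genes were far apart. E2f3 had 9.55 and 9.70 (9.62 ± 0.107) at its upstream start, and a second, weaker region of 3.02 ± 0.113 (SD, n = 2) at a start inside the gene. E2f1 had 7.28 and 7.79 (7.54 ± 0.358). E2f2 had only a weak region of 3.14 that overlapped no region of either replicate's own sets; 0.206% of all open promoters were weaker. E2f3 was above E2f1 in both replicates. Rb1, the retinoblastoma gene, had 5.01 and 4.21 (4.61 ± 0.568), with its summit at -365 bp from the start, farther upstream than that of any other open member. The other 37 summits lay within 300 bp of a start of their gene.

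In all, 35 members had a value in both replicates, and 25 of them were higher in replicate 1. As a log2 ratio of replicate 2 to replicate 1, the members' median was -0.12 (SD 0.22 over promoters), and that of 8848 open promoter regions was -0.01 (SD 0.22). Higher values in replicate 1 were seen in 11 of 13 licensing and fork genes, 8 of 10 mitotic genes and 3 of 3 inhibitors, but in 0 of 3 of the group of cyclin E and Cdk2. The group medians for licensing and fork genes were 10.7 and 9.84, and those for mitotic genes 10.1 and 9.33.

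Distal regions were spread unevenly. The 42 genes had 53 in the conservative set, or 1.26 per gene beside 0.745 for all protein-coding genes. At least 1 was found for 18 of 42 (42.9%), where the share of all genes was 33.6%. The share also differed by CpG class. In the richest class 45.3% of all genes had at least 1, at 1.11 per gene. In the next class these values were 39.7% and 0.860, and in the middle class 34.5% and 0.727. The share of members thus lay within the range of the classes that hold them. With replicate 1 or replicate 2 alone, in its own thresholded set, the 53 regions became 27 and 30. In the replicates' own thresholded sets 16 members had a distal region in replicate 1 and 16 in replicate 2, beside 22.1% and 22.3% of all genes. Of the 38 members with an open promoter, 22 (57.9%) had no distal region, close to the 54.7% of all open genes. By role, the G1 cyclins and kinases had 3.20 distal regions per gene and the E2F and RB genes 2.25, against 0.769 for licensing and fork genes and 0.636 for mitotic genes. The space around the genes differed as well: the median regulatory domain, the stretch within 100 kb that lies nearest to the gene, was 109 kb for the G1 group and 26.6 kb for the mitotic one. Per 100 kb of domain the order changed, with 3.54 regions for the E2F and RB genes, 3.39 for the inhibitors, 3.07 for the G1 group, 2.86 for nucleotide supply, 2.77 for licensing and fork genes, 1.61 for cyclin E and Cdk2 and 1.40 for mitotic genes, beside 1.06 for all protein-coding genes.

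**Figure D4:**
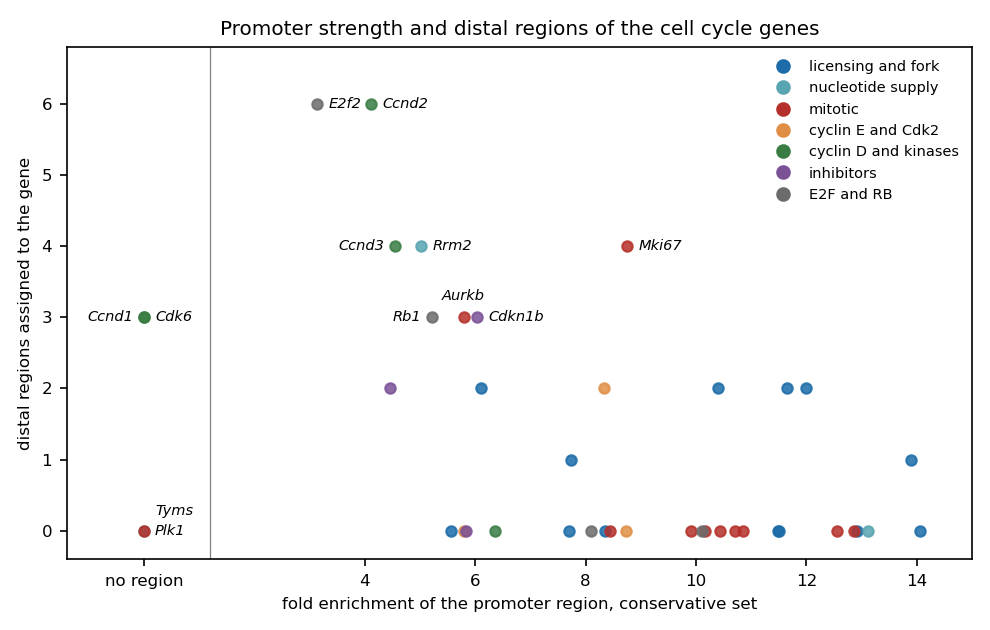
Fold enrichment of the strongest promoter region (horizontal) against the number of distal regions (vertical) for each of the 42 genes, colored by role; genes left of the grey line have no promoter region in the conservative set. The genes with 3 or more distal regions have a promoter fold of 6.04 or less or none, except Mki67 at 8.75.

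The strongest distal regions belonged to Ccnd2 and Ccne1 and are shown with a region of Ccnd3 that held the only PU.1 match among the 53. Each sequence is that of GRCm38.p6 on its plus strand, 100 bases to each side of the summit. Capitals mark matches on either strand to PU.1 (GAGGAAGT), AP-1 (TGANTCA), C/EBP (TTGCNNAA) or RUNX (TGTGGT), factors of myeloid cells.
Ccnd2 (chr6:127236624-127236824): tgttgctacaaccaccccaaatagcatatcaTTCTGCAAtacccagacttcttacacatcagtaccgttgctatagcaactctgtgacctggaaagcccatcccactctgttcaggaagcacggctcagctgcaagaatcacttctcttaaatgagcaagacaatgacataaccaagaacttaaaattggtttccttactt
Ccnd2 (chr6:127162954-127163154): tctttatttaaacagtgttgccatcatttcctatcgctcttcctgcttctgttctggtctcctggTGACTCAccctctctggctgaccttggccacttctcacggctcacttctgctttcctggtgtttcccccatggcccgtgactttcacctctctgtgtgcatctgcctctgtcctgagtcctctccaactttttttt
Ccne1 (chr7:38084924-38085124): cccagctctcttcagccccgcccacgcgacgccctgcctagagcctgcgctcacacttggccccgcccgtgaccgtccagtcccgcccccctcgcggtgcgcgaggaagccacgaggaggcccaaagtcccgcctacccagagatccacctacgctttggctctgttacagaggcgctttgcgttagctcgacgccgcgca
Ccnd3 (chr17:47508010-47508210): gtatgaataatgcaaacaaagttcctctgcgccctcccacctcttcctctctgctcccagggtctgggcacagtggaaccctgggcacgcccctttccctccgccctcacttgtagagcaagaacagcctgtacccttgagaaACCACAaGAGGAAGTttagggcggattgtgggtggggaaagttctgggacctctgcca

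The capitals are a C/EBP match in the upper Ccnd2 sequence, an AP-1 match in the lower one, and in Ccnd3 a RUNX match followed by the PU.1 match. The Ccne1 sequence has none of the 4. Of the 53 distal regions, 1 (1.89%) held PU.1 letters within 100 bases of its summit, against 11.6% of all 16273 distal regions of genes. AP-1 was in 7 (13.2% against 11.1%), C/EBP in 4 (7.55% against 13.3%) and RUNX in 8 (15.1% against 24.4%). These are counts of 8 or fewer.

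Ccnd2 had 6 distal regions. The strongest, chr6:127236492-127237011, lies in intergenic sequence 84.5 kb upstream, with a fold of 11.2 in replicate 1 and 9.67 in replicate 2 (10.4 ± 1.05, SD, n = 2). A second, 10.9 kb upstream, had 10.2 and 9.14 (9.66 ± 0.740). In replicate 2 both were more than 2 times its promoter value of 4.03. Another, 93.8 kb upstream, had 7.70 and 8.01 (7.85 ± 0.217). The other 3 were weak, between 3.60 and 4.08 in the conservative set.

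Of the other G1 genes, 3 had distal regions. Ccnd3 had 4, of which 3 were intronic. The strongest, chr17:47511108-47511526 and 6.04 kb into the gene, had 8.64 and 7.53 (8.09 ± 0.780). It exceeded the main promoter in both replicates. The region outside the introns lay in an exon of the neighbour Bysl, at 3.61 in the conservative set, and was in neither thresholded set. Cdk6, which lacked a conservative promoter region, had 1 region 40.2 kb upstream, at 7.32 and 7.76 (7.54 ± 0.314), and 2 close together in an intron, about 76.3 and 76.7 kb from the nearest start. The first of these had 6.57 and 7.96 (7.26 ± 0.987) and the other 6.93 and 6.86 (6.89 ± 0.0433). All 3 were in both replicates' thresholded sets. Ccnd1 had 3 regions in spite of its uncalled promoter. That in its intron, 2.20 kb from the start at chr7:144937505-144937926, had 6.43 and 4.91 (5.67 ± 1.08) and was in both thresholded sets. The intergenic ones, 31.3 and 42.01 kb upstream, had 4.96 ± 0.339 and 5.59 ± 0.643 (SD, n = 2) and were in neither. Cdk4 had none.

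**Figure D5:**
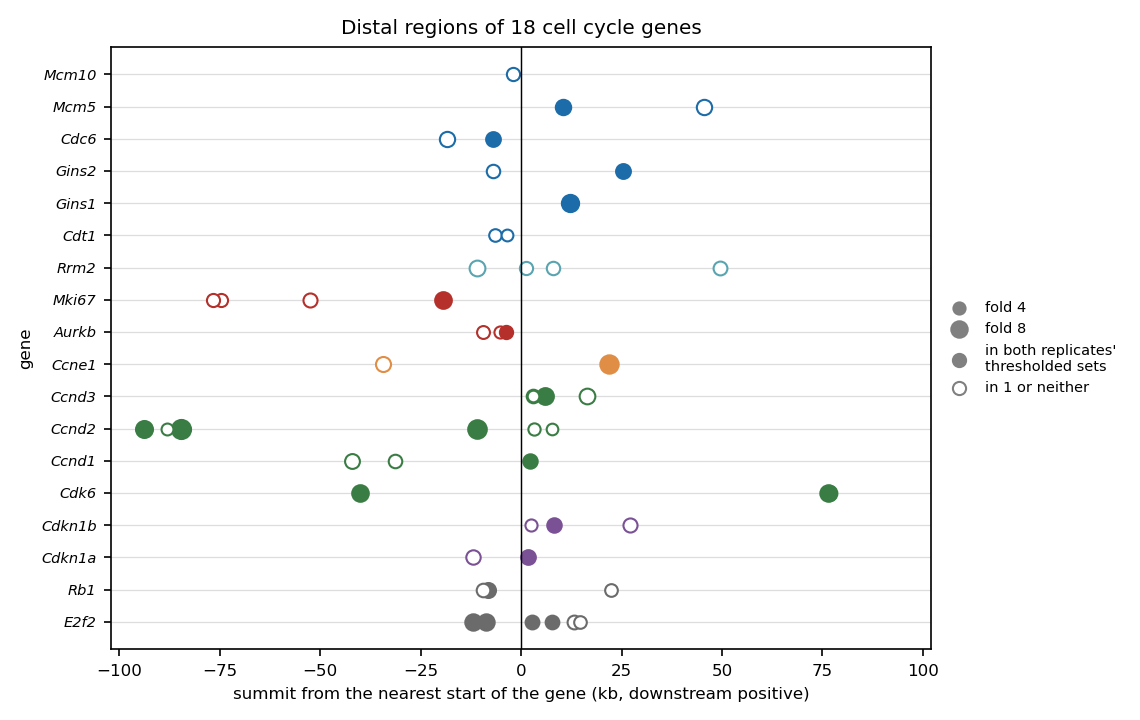
Summits of the 53 distal regions of 18 genes by distance from the nearest start of the gene, in kb, with downstream positive; the area of a circle grows with the fold, and filled circles were in both replicates' thresholded sets. The Ccnd2 regions 84.5 and 93.8 kb upstream and the intronic pair at Cdk6, which overlaps on this scale, are filled and large, while the Ccnd2 region between the former 2 is small and unfilled.

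E2f2 also had 6 distal regions and the weakest open promoter. The region 12.1 kb upstream had 6.01 and 8.34 (7.17 ± 1.65) and that 8.69 kb upstream 7.64 and 7.07 (7.36 ± 0.405). Its other 4 lay in introns, at 4.39 to 5.41 in the conservative set. Cdkn1a had an intronic region 1.72 kb from its nearest start, at chr17:29094920-29095860, of 6.19 and 6.48 (6.33 ± 0.210). This was above its promoter in both replicates. Cdkn1b had 3, the strongest 8.18 kb downstream at 5.98 and 5.40 (5.69 ± 0.408), and Rb1 had 3, the strongest 8.20 kb upstream at 5.84 and 6.25 (6.05 ± 0.289).

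Among the 11 mitotic members only Mki67 and Aurkb (18.2%) had a distal region, 4 and 3, where 33.6% of all genes had at least 1. The low share was not seen in the 29 further mitosis genes described below, of which 11 (37.9%) had one. The Mki67 region 19.5 kb upstream had 7.69 and 8.38 (8.04 ± 0.485), and its other 3 were in neither thresholded set. Ccne1 had a wide region 21.9 kb downstream, chr7:38084674-38085887, at 9.90 and 9.36 (9.63 ± 0.384), above its own promoter in each replicate. Among licensing and fork genes the strongest was in an intron of Gins1, 12.3 kb from the start, at 8.65 and 7.75 (8.20 ± 0.641). Plk1 and Tyms had neither a promoter nor a distal region in the conservative set. Of all 53 regions, 27 were intergenic, 21 intronic and 5 exonic, 24 lay within 10 kb of a start, and their median fold was 5.67 beside 6.03 for all distal regions within the distance limit. In both replicates' thresholded sets were 23, and 23 were in neither. Shares of all distal regions by place or by replicate set are not given here, so these counts have no baseline. A nearest start is not proof that a region acts on that gene, and some lie inside neighbours, such as those of Cdc6 in Wipf2.

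Of 91 other genes of the same pathway, 86 (94.5%) had an open promoter, beside 46.6% of all protein-coding genes. Of these 91, 41 were in the CpG-richest class, where 78.5% of all genes were open. The median fold of the 86 was 9.97, beside 8.34 for all open promoters. Replication genes were open at 34 of 35, the exception being Tk1, a thymidine kinase gene. The strongest were Rpa3, a subunit of the single-strand binding protein, at 14.2 ± 0.948, and Orc1, the largest subunit of the origin recognition complex, at 13.7 ± 0.894 (SD, n = 2). The weakest in the conservative set were Cdc7, a kinase that fires origins, at 4.89 ± 0.368, and Pola2, a subunit of the priming polymerase, at 5.02 ± 0.118, which had the most distal regions in this group, 5. Rfc1, Rpa1 and Rpa2 had 2 each. All 29 further mitosis genes were open. Nusap1, a spindle protein, had 16.2 ± 0.984 and Espl1, the separase that cuts cohesin, 15.4 ± 0.408, and Kif23 and Birc5 were the weakest at 6.63 ± 0.735 and 7.70 ± 0.509. Pttg1, the inhibitor of separase, had 10 distal regions, and Incenp and Nek2 had 4 each. Of 27 regulators 23 were open. Cdc25c, a phosphatase that activates Cdk1, had 14.1 ± 0.732 and Cdk7, the kinase that activates other cyclin-dependent kinases, 12.8 ± 1.53. Cdkn1c, the p57 inhibitor, and Foxm1, a mitotic transcription factor, were the weakest in the conservative set at 4.49 ± 0.944 and 5.20 ± 1.18. The regions of Rpa3, Orc1, Nusap1 and Foxm1 are shared with Umad1, Prpf38a, Oip5 and Rhno1, in that order. Their values cannot be assigned to the pathway genes alone. Wee1 had 3 distal regions, and E2f7 and Tfdp2 had 2 each. E2f6, Tfdp1, Cdkn2a and Ccna1 had no conservative promoter region. The same motifs were counted in these genes. CHR letters were in 15 of 25 further mitosis promoters, 4 of 29 further replication promoters and 6 of 18 regulator promoters, beside 17.1% of all promoters. E2F letters were in 0, 8 (27.6%) and 6 (33.3%) of these, beside 2.96% of all promoters. CCAAT boxes were in 17 (68.0%), 15 (51.7%) and 8 (44.4%), beside 38.6%.

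The labelled cell type was checked against marker genes. Of 9 monocyte markers 8 had an open promoter (all but Ccr2), where 46.6% of all protein-coding genes did. Their folds, 3.82 to 7.17, were all below 8.34, the median of all open promoters. No promoter was open among 5 T-cell and 5 neutrophil markers. One each was open among B-cell (Pax5, 5.60), NK-cell (Prf1, 6.72), erythroid (Klf1, 4.97) and progenitor markers (Flt3, 6.58), with folds inside the monocyte range. Distal regions separated the markers less: 21 were assigned to the 9 monocyte markers, 9 to the 4 NK-cell, 7 to the 4 progenitor, 4 to the 5 T-cell, 2 to the 5 B-cell, 2 to the 5 neutrophil and 0 to the 4 erythroid markers. The progenitor regions belonged to 2 genes, while Kit and Gata2 had no region of either kind. Whether a share of dividing cells was present in the samples was not tested.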

How the data were processed

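ATAC-seq peak lists of 2 monocyte replicates on mm10 were used, all from 1 group, with replicate numbers from the labels. The authors called peaks per replicate and from both replicates, per the deposited README, which also names an input it does not describe. The aligner and the peak caller were not given in the sources used here. Each fold is the authors' deposited ratio over background. The −log10 p of each peak is the authors' deposited value and chose the summit. The IDR score (irreproducible discovery rate), as deposited by the authors, is 540 or more in thresholded sets.

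Overlapping peaks on chromosomes 1 to 19, X and Y were joined, and a joined region took the highest fold of its peaks. Values of a replicate come from its pseudoreplicated set, as the strongest region that overlaps the conservative one by 1 base or more. Coordinates are 1-based. Gene models were GENCODE M21, and sequence came from RefSeq, GRCm38.p6. The CpG ratio was taken within 500 bp of the start and parted into 5 classes. Members, role groups, marker and pathway lists and motif strings were chosen with earlier results of these data known, so no p-value is given. Lists are described by counts and medians beside all genes. All members are named, and of each further pathway group the 2 strongest, the 2 weakest, the 2 with most distal regions with ties, and those not open. Alternatives were other peak sets, each replicate alone, a score of 1000, other windows and other distances. The assignment of regions was tested on simulated data. Python 3.11.15, numpy 2.4.6, pandas 2.3.3, pysam 0.24.0 and matplotlib 3.10.9 were used.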

Additional observations from a re-analysis of the deposited data

How the results depend on the processing

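Of 45 alternative values, 38 stayed within 1.5 times the count or within the bounds set for a median or share. The number of members with an open promoter ran from 32, at an IDR score of 1000, to 41, in the replicated and pseudoreplicated sets of the series, where the share of all genes ran from 38.4% to 54.8%. The number of distal regions depended most on the peak set. It was 53 in the conservative set, 104 in the replicated set of the series, 103 in the pseudoreplicated set and 26 at an IDR score of 1000, and 27 to 30 when 1 replicate was left out. With 500 bases to each side of the start, the share of members with CHR letters was 69.7% and with NF-Y letters 84.8%, where those of all promoters were 45.9% and 69.9%. A promoter window of 2 kb added Ccnd1. Peak lists hold no depth, so a weak region missing from 1 replicate, as at Ccnd2 or Plk1, is not shown to be closed there. No paired analysis was possible because the replicates form 1 group.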
